A study of Mus musculus with 4 samples.

Results

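Spermatozoa drive the flagellum with ATP that is made in large part by glycolysis along the tail, and they do this with a set of enzymes of their own. Many are encoded by genes or retrogenes that are transcribed only in meiotic and postmeiotic germ cells, beside paralogs that serve somatic tissues. Glucose enters through a facilitative transporter, is split to pyruvate by enzymes that are in part bound to the fibrous sheath of the tail, and pyruvate is turned to lactate, passed across membranes by monocarboxylate transporters or fed to the mitochondrial pyruvate dehydrogenase. The genes described here are 10 members of this route: *Slc2a3* for glucose entry, *Hk1*, *Aldoart1*, *Gapdhs*, *Pgk2*, *Pgam2* and *Eno4* for the steps of glycolysis, *Ldhc* for lactate, *Slc16a7* for transport of lactate and pyruvate, and *Pdha2* for pyruvate dehydrogenase. They were taken as the probe sets whose platform annotation names a single gene that is 1 of the 10. This gave 17 probe sets, at least 1 for each gene, of the 45037 probe sets on the array that are not controls. A further probe set that is annotated to *Hk1* together with other genes was left out.

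Testis RNA of 2 *Ccnyl1*-/- mice and 2 WT mice was hybridized to Affymetrix GeneChip mouse arrays, with 1 array for each animal, given as biological replicates. The *Ccnyl1*-/- mice carried the *Ccnyl1* tm1a (EUCOMM) Wtsi allele, in which a LacZ cassette with a stop and a polyA signal is meant to end the transcript early in every cell, and they came from matings of heterozygotes. All 4 mice are labelled C57BL/6 and were 2 months old, an age at which every stage of germ cell is present. The sources used here do not say whether the WT mice on the arrays were littermates of the mutants. CCNYL1 is a cyclin Y-like protein that was studied for its part in sperm motility, and the comparison asks whether the testis makes different amounts of the transcripts for the energy route of the sperm tail when it is lost.

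The values are MAS5 signals, which are intensities on a linear scale with 1 scaling factor for each array. A probe set is a group of short oligonucleotides that reads 1 transcript region. Several can read 1 gene, and since each binds with its own strength the signals of different probe sets are not compared. Genotypes were compared on log2(signal + 16) with limma, which pools the spread over probe sets of like brightness, over the 32438 probe sets with a mean signal of at least 32. A change was called at an adjusted p (Benjamini-Hochberg over all of them) under 0.05. The trimmed mean was 500.0 on all 4 arrays, log2 signals of any pair of arrays correlated across probe sets at 0.977 to 0.980, and the ratio of the 3' to the 5' signal of *Actb* ran from 1.74 to 1.82 in *Ccnyl1*-/- and from 1.78 to 1.87 in WT mice. *Ccnyl1*, the targeted gene, had signals of 921 and 969 in the *Ccnyl1*-/- testes, against 2256 and 2425 in the WT testes, a log2 fold change of -1.29 with a standard error of 0.09 (limma adjusted p = 0.00463), so that the arrays were in the labelled order. The sources do not place this probe set relative to the cassette. With 2 mice per genotype an exact permutation test of 1 value cannot give a two-sided p under 0.333, so that calls rest on limma.

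None of the 17 probe sets was called. The test over the whole table called 0.0123% of the probe sets, 4 in all, so that a count of 0 among 17 is close to that background. At an unadjusted p under 0.05 there was 1 of the 17, that of *Pgam2*, against 6.05% of all tested probe sets. With arrays scaled to a common median there were 8 of the 17, against 6.84% of all tested and 28.8% of those with a mean signal of at least 5000 (15.7% of these on the deposited scale), and with the replicate number as a block 3 of the 17, against 7.28% of all tested. The adjusted p-values of the 17 ran from 0.758 to 0.982 (limma), and their median log2 fold change was -0.04 where that over all tested probe sets was 0.02. Negative values made up 10 of the 17 (45.2% of all tested), a count that was 14 with arrays scaled to a common median and 9 after quantile normalization. Both mutants lay below both WT mice on 8 of the 17 (15.3% of all tested) and above them on 3 (20.6%), so that 11 did not overlap (35.9%). In a whole testis, fewer cells of a type and less RNA per cell cannot be told apart. The precision allows a bound: for all 17 the 95% interval of the moderated test lay within 2-fold either way, as it did for 75.8% of all tested probe sets and for 100% of those with a mean signal of at least 5000. Taking each gene by its brightest probe set, the intervals together spanned 0.776-fold to 1.11-fold of WT. These intervals are not adjusted for the number of probe sets. They also rest on pooling the spread by brightness (the variance trend). Without the trend, 0.185% of the bright probe sets and 0 of the 17 had an unadjusted p under 0.05 (limma). Whether all 17 stay within 2-fold in that fit was not examined.

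**Figure D1:**
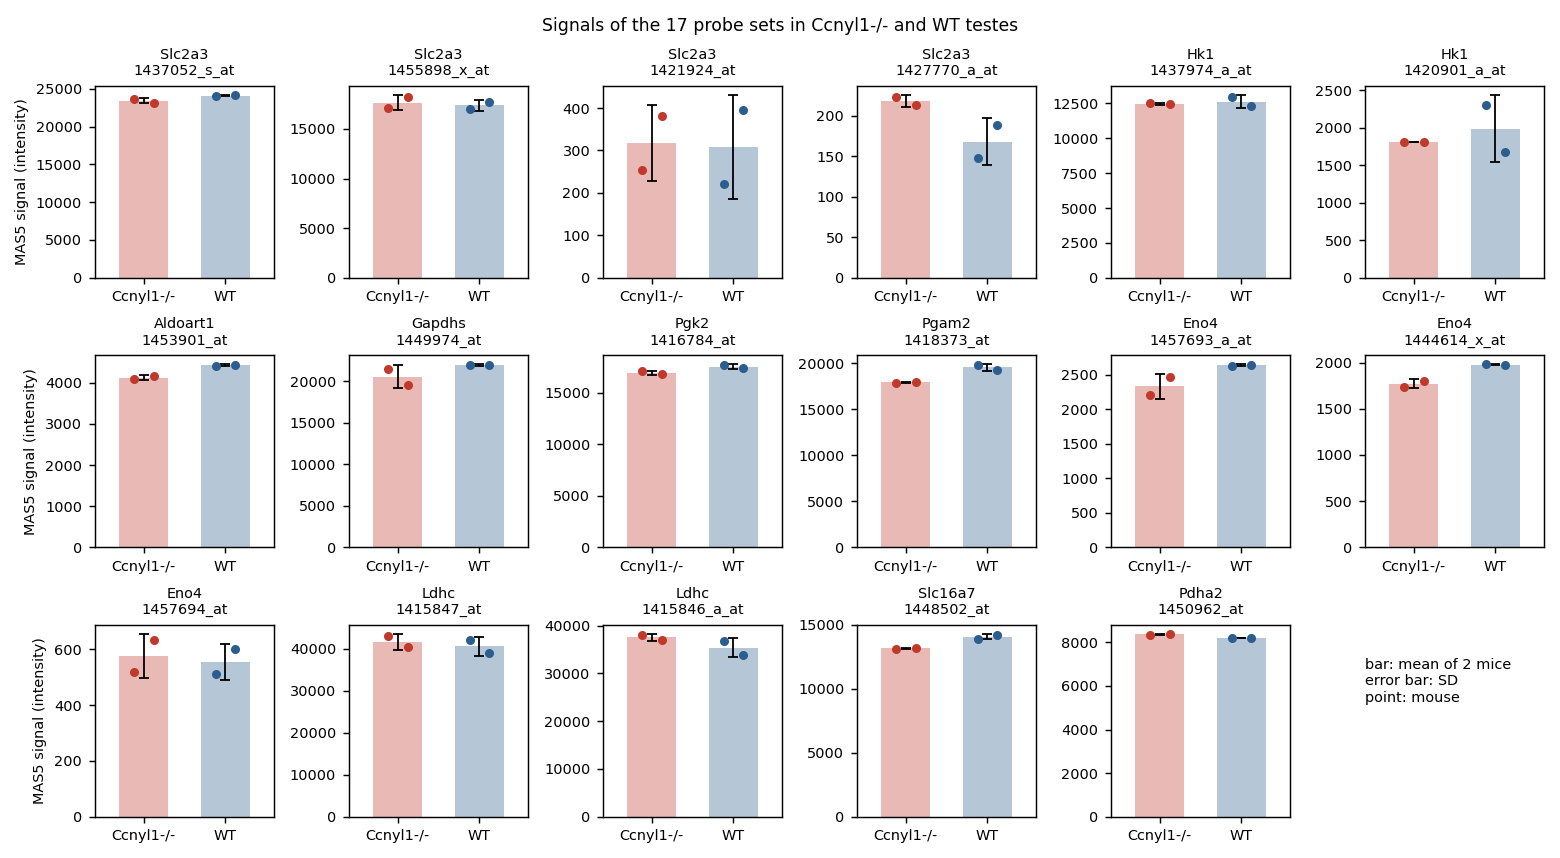
MAS5 signal (intensity, linear axis from 0) of each of the 17 probe sets in *Ccnyl1*-/- and WT testes, with bars at the genotype mean (n = 2), whiskers of 1 SD and a point for every mouse. The widest gap between the genotypes relative to the level is on the dim *Slc2a3* probe set 1427770_a_at, with 224 and 213 in *Ccnyl1*-/- testes against 148 and 189 in WT testes, and for most bright probe sets the bars differ by little.

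Transcripts for glucose entry and its first phosphorylation were close to the WT level where the signal was bright. *Slc2a3* encodes GLUT3, a glucose transporter of high affinity that is known from neurons and sperm. Its brightest probe set, 1437052_s_at, had signals of 23722 and 23205 in *Ccnyl1*-/- testes, against 24060 and 24192 in WT testes, a log2 fold change of -0.04 (95% interval -0.13 to 0.04, limma adjusted p = 0.894). The mutant mice lay just below the WT mice. A second probe set designed on the same expressed sequence, 1455898_x_at, had 17109 and 18209 in *Ccnyl1*-/- testes, against 17011 and 17766 in WT testes, and the genotypes overlapped (log2 fold change 0.02, 95% interval -0.09 to 0.13). The other pair of *Slc2a3* probe sets was dim and spread widely. On 1421924_at the mice of each genotype were farther apart than the genotypes, with 255 and 382 in *Ccnyl1*-/- testes, against 221 and 395 in WT testes (log2 fold change 0.07, 95% interval -0.56 to 0.70). On 1427770_a_at the signals were 224 and 213 in *Ccnyl1*-/- testes, against 148 and 189 in WT testes, a log2 fold change of 0.36 (limma adjusted p = 0.84, standard error 0.19). This is the largest difference among the 17 and its genotypes did not overlap, but the bright probe sets of the gene did not show it. Both bright probe sets, by their suffixes s_at and x_at, are of types that may also read related sequences. Whether they do was not tested.

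*Hk1* encodes hexokinase 1, which traps glucose in the cell by phosphorylation and whose germ cell transcripts give a form tied to the sperm tail. Its brighter probe set, 1437974_a_at, had 12511 and 12430 in *Ccnyl1*-/- testes, against 12975 and 12283 in WT testes, with overlapping genotypes and a log2 fold change of -0.02 (95% interval -0.13 to 0.09). The dimmer one, 1420901_a_at, had 1812 in both *Ccnyl1*-/- testes, against 2308 and 1671 in WT testes. Its log2 fold change of -0.12 (95% interval -0.43 to 0.20) rested on 1 WT mouse, since it was 0.12 without WT replicate 1 and -0.35 without WT replicate 2. The sources used here do not say which *Hk1* transcripts each probe set reads.

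*Aldoart1* and *Gapdhs*, for the splitting of the sugar and its first oxidation, were at 0.932-fold and 0.934-fold of WT, and neither passed the test. *Aldoart1* is a retrogene of aldolase A that is transcribed in the testis. Its probe set had 4084 and 4171 in *Ccnyl1*-/- testes, against 4419 and 4444 in WT testes, a log2 fold change of -0.10 (limma adjusted p = 0.853, standard error 0.06), and the genotypes did not overlap. *Gapdhs* encodes the spermatogenic form of glyceraldehyde-3-phosphate dehydrogenase, an enzyme of the fibrous sheath that mouse sperm need for progressive motility. It had 21527 and 19580 in *Ccnyl1*-/- testes, against 22022 and 21922 in WT testes, a log2 fold change of -0.10 (limma adjusted p = 0.832, standard error 0.05). Much of this difference came from *Ccnyl1*-/- replicate 2, without which the log2 fold change was -0.03, and without *Ccnyl1*-/- replicate 1 it was -0.17.

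*Pgk2*, an intronless copy of the X-linked *Pgk1*, encodes the phosphoglycerate kinase of late spermatogenic cells and makes the first ATP of the route. Its single probe set had 17064 and 16800 in *Ccnyl1*-/- testes, against 17668 and 17359 in WT testes, a log2 fold change of -0.05 (95% interval -0.14 to 0.04, limma adjusted p = 0.889). Both mutants lay below both WT mice by a small part of the level, and the value ran from -0.06 to -0.04 with each mouse left out in turn.

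*Pgam2* encodes the muscle and testis subunit of phosphoglycerate mutase, and it was the gene nearest to a call. Its probe set had 17920 and 17998 in *Ccnyl1*-/- testes, against 19801 and 19323 in WT testes. This is 0.918-fold of WT (log2 fold change -0.12, 95% interval -0.21 to -0.03), with the mice of a genotype close to each other and no overlap, at an unadjusted p of 0.0142 and an adjusted p of 0.758 (limma). With each mouse left out in turn the log2 fold change ran from -0.14 to -0.11. In this fit it was the only one of the 17 whose interval left out 0. Other limma fits on the deposited scale gave other counts of the 17 at an unadjusted p under 0.05. These were 0 without the variance trend, 2 with robust eBayes and 3 with the replicate block. The shares of all tested were 5.88%, 6.21% and 7.28%, and those of the bright probe sets 0.185%, 16.3% and 18.1%. Since *Pgam2* is also a gene of skeletal muscle, 8 muscle genes were checked beside it. The 5 of them above the minimum signal had mean signals of 105 or less, their log2 fold changes ran from -0.70 (*Acta1*, skeletal actin) to 0.40 (*Tnnc2*, a troponin), and the summed signal of the 8 was 413 and 358 in *Ccnyl1*-/- testes against 434 and 431 in WT testes. Muscle transcripts were thus dim in both genotypes, and their part in the *Pgam2* difference was not tested.

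*Eno4* encodes an enolase that mouse sperm need for normal motility and the build of the fibrous sheath. The brightest of its 3 probe sets, 1457693_a_at, had 2201 and 2464 in *Ccnyl1*-/- testes, against 2634 and 2648 in WT testes, a log2 fold change of -0.18 (95% interval -0.37 to 0.01, limma adjusted p = 0.82). The next, 1444614_x_at, had 1738 and 1803 in *Ccnyl1*-/- testes, against 1979 and 1976 in WT testes, a log2 fold change of -0.16 (95% interval -0.34 to 0.02). On both the mutants lay below WT and the WT mice differed by little. On the dimmest, 1457694_at, the genotypes overlapped, with 520 and 632 in *Ccnyl1*-/- testes against 510 and 600 in WT testes, and the log2 fold change was 0.05 (95% interval -0.28 to 0.38). The brighter pair thus had the largest negative values of the 17, which the dimmest probe set of the gene did not share. Of the pair, 1444614_x_at is of a type that may also read related sequences, which was not tested.

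**Figure D2:**
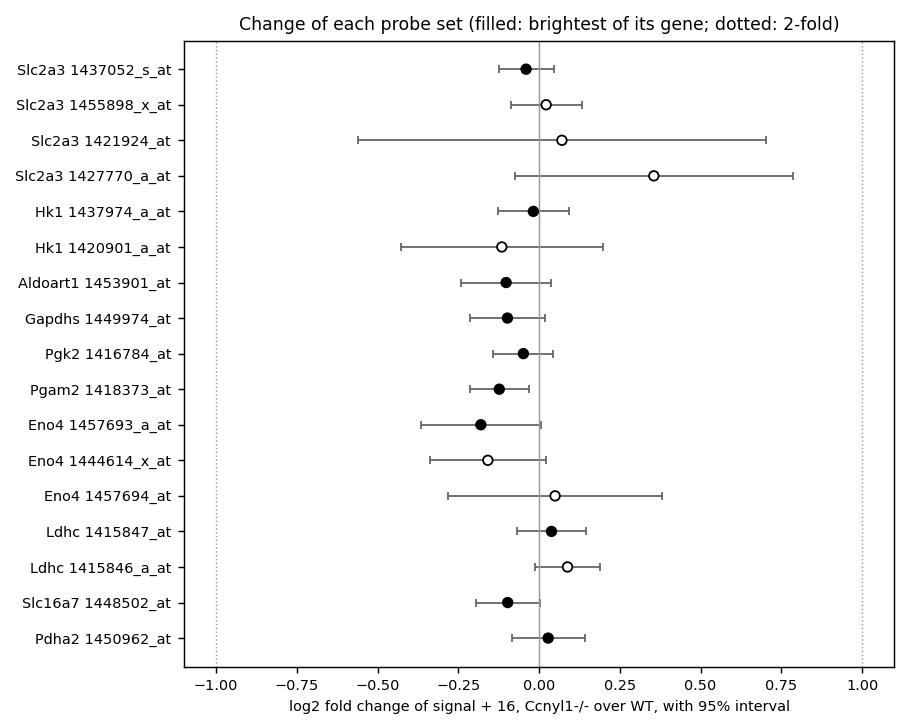
Log2 fold change of signal + 16 (*Ccnyl1*-/- over WT) with its 95% interval from limma for each of the 17 probe sets, in the order of the route from glucose entry to pyruvate, filled where the probe set is the brightest of its gene. All intervals lie between the dotted lines at 2-fold, and that of *Pgam2*, from -0.21 to -0.03, is the only one shown that leaves out 0.

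*Ldhc* encodes the germ cell subunit of lactate dehydrogenase, LDH-C4, which turns pyruvate to lactate and renews NAD for glycolysis. Its brightest probe set, 1415847_at, had 42933 and 40273 in *Ccnyl1*-/- testes, against 42064 and 38973 in WT testes, with overlapping genotypes and a log2 fold change of 0.04 (95% interval -0.07 to 0.15, limma adjusted p = 0.923). The second probe set, 1415846_a_at, had 38045 and 37030 in *Ccnyl1*-/- testes, against 36739 and 33937 in WT testes, which is 0.09 higher on the log2 scale (95% interval -0.01 to 0.19, limma adjusted p = 0.83) with no overlap. By the brightest probe sets *Ldhc* was on the positive side while 8 of the other 9 genes were negative, but with arrays scaled to a common median *Ldhc* and all the others were negative. How close such bright probes were to the ceiling of the scanner cannot be read from the deposited signals.

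*Slc16a7* encodes MCT2, a monocarboxylate transporter of high affinity for pyruvate and lactate. Its probe set had 13126 and 13192 in *Ccnyl1*-/- testes, against 13928 and 14228 in WT testes, which is 0.935-fold of WT (log2 fold change -0.10, 95% interval -0.20 to 0.0021, limma unadjusted p = 0.054 and adjusted p = 0.82). *Pdha2*, an intronless copy of the X-linked *Pdha1*, encodes the germ cell form of the E1 alpha subunit of pyruvate dehydrogenase. It had 8350 and 8377 in *Ccnyl1*-/- testes, against 8205 and 8198 in WT testes, a log2 fold change of 0.03 (95% interval -0.08 to 0.14, limma adjusted p = 0.951). The mice of each genotype were so close to each other that the mutants stood above WT without overlap, by a gap smaller than the standard error of 0.05 from limma.

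The genes also differ in how their start regions read. RefSeq windows of 300 bases (GRCm38.p6, 250 before to 50 after a start site) were at hand for 7 of the 10 genes. The letters of a full cAMP response element (TGACGTCA), the kind of site that the spermatid activator CREM binds, were searched beside its half-site TGACG and those of the GC box (GGGCGG), of a CCAAT box and of a TATA box (TATAAA) on both strands of each window, with the half-site also counted inside a full site. The full element was in none of the 10 windows of these genes and in 1.79% of all 32851 windows. The half-site was in 2 of the 10 windows, 1 each of *Ldhc* and *Gapdhs* (20.8% of all windows), the GC box in 1 (35.7%), CCAAT in 2 (37.4%) and TATAAA in 1 (13.6%). The windows shown are that of *Pgk2* and the first of 2 of *Ldhc*. These genes are the best known germ cell isoforms of the route, and the windows differ in which letters they hold. The second *Ldhc* window (chr7:46861237-46861536, plus strand) held none of the searched letters. Capitals mark the half-sites and the GC box of *Ldhc* (chr7:46861013-46861312, plus strand) and the CCAAT letters of *Pgk2* (chr17:40208560-40208859, minus strand).
Ldhc: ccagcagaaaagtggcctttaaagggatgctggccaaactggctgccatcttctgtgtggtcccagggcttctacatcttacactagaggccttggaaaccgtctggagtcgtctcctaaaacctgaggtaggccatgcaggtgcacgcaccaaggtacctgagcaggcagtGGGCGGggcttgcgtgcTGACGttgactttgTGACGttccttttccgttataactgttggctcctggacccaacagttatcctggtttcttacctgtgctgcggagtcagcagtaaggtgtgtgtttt
Pgk2: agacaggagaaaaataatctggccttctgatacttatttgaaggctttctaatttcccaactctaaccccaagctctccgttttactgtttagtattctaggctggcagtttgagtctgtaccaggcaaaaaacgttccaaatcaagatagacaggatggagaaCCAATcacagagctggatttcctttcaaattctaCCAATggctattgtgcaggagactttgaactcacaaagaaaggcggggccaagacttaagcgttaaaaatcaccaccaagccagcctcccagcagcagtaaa
A match of letters is not a bound site, and the arrays measured no binding. The 10 genes lie on 8 autosomes in the RefSeq gene table of the same assembly (*Gapdhs* and *Ldhc* both on chromosome 7, *Hk1* and *Slc16a7* both on chromosome 10), and *Ldhc* is the direct neighbour of *Ldha* with no protein-coding gene between them.

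Set against brightness, the small negative values of these genes stood among many alike. Of the 10 probe sets here with a mean signal of at least 5000, which leave out *Eno4* and *Aldoart1*, 5 had both mutants below both WT mice, 2 had both above and 3 overlapped. Over all 1621 probe sets that bright, 35.9% had the mutants below WT, 12.1% above, and 48% did not overlap in either direction. Negative log2 fold changes made up 6 of these 10 and 67.6% of the 1621, whose median was -0.04 (-0.0064 after quantile normalization and -0.09 with arrays scaled to a common median). Bright transcripts as a whole thus sat slightly lower in the *Ccnyl1*-/- arrays on the deposited scale. By the brightest probe set of each of the 10 genes, 7 had both mutants below, against 15.3% of all tested and 35.9% of the bright ones. Both mutants were above on 1 (20.6% and 12.1%), and 8 were negative (45.2% and 67.6%). The bright shares do not cover *Eno4* and *Aldoart1*, whose mean signals were 2487 and 4279. Over all 17 probe sets the counts were 8 below, 3 above and 10 negative.

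**Figure D3:**
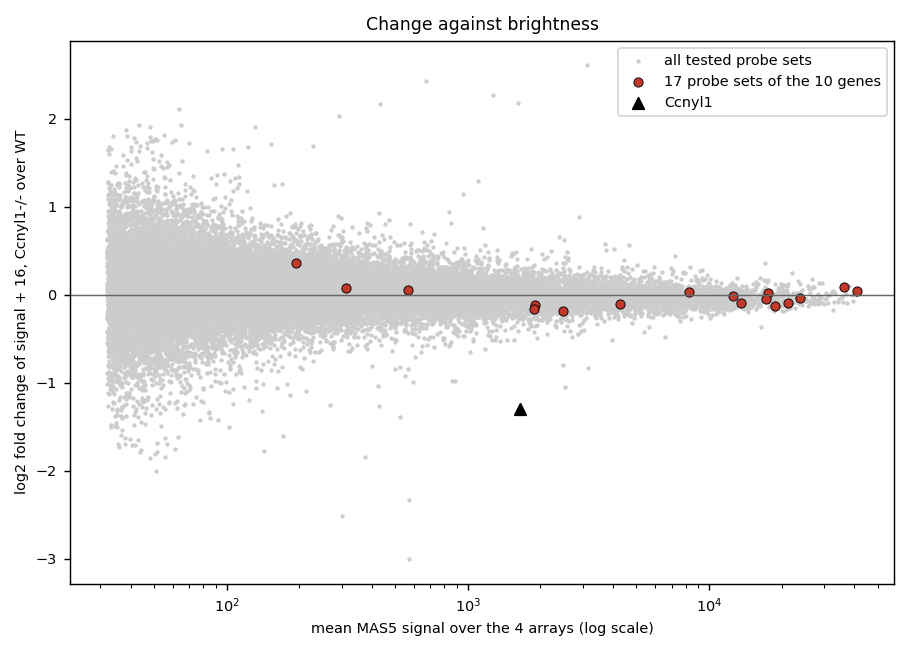
Log2 fold change of signal + 16 (*Ccnyl1*-/- over WT) against the mean MAS5 signal over the 4 arrays (log scale), 1 grey point per tested probe set, with the 17 probe sets as circles and *Ccnyl1* as a triangle. The 17 lie inside the cloud at their brightness, from -0.18 to 0.36, and *Ccnyl1* lies outside it at -1.29.

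Paralogs of these genes were read beside them on the same arrays, and none of their 33 tested probe sets was called (0.0123% of all tested). At an unadjusted p under 0.05 from limma there were 4 (6.05% of all tested). Some of the paralogs were bright in these testes, so that the list is not read as a somatic one. *Pgk1*, the X-linked partner of *Pgk2*, had 724 and 693 in *Ccnyl1*-/- testes, against 867 and 844 in WT testes on 1417864_at, the brightest of its 3, with a log2 fold change of -0.27 (95% interval -0.51 to -0.03, limma adjusted p = 0.803). Of its other probe sets 1438640_x_at had 0.13 and 1439435_x_at had -0.57, the last with 669 in WT replicate 1 and 282 in WT replicate 2, so that they did not share a direction. The ratio of *Pgk2* to *Pgk1* was higher in both mutants than in both WT mice, by 0.22 on the log2 scale, for which an exact permutation test cannot give a p under 0.333. *Aldoa*, the parent of *Aldoart1*, had -0.18 on its brightest probe set (limma unadjusted p = 0.010 and adjusted p = 0.729) and values from -0.05 to 0.27 on the other 4. Every *Aldoa* probe set, the brightest included, is of a type that may also read related sequences, and whether they read *Aldoart1* was not tested. *Aldoart2*, a second testis aldolase retrogene, had -0.07, beside -0.10 for *Aldoart1*. The ratio of *Aldoart1* to *Aldoa* was higher in both mutants by 0.07 on the log2 scale, and its ratio to *Aldoart2* was lower in both by 0.03.

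In the other pairs, *Ldha*, the neighbour of *Ldhc*, had 15899 and 15971 in *Ccnyl1*-/- testes, against 16341 and 16994 in WT testes, which is -0.06 on the log2 scale, and *Ldhb* had -0.04. *Pgam1*, the broadly expressed mutase, had 0.09 beside -0.12 for *Pgam2*, and the ratio of *Pgam2* to *Pgam1* was lower in both mutants by 0.22 on the log2 scale. *Eno3*, the muscle enolase, had -0.04 beside -0.18 for *Eno4*, and the ratio of *Eno4* to *Eno3* was lower in both mutants by 0.14 on that scale. Ratios of the pairs without such a statement overlapped between the genotypes. The floor of 0.333 for an exact permutation p holds for every ratio, and 35.9% of all tested single probe sets did not overlap. *Hk2* had -0.04, *Pdha1* -0.06, *Slc2a1*, the GLUT1 gene, 0.04 (negative after either other scaling), *Slc16a1*, the MCT1 gene, -0.07, and *Slc16a3*, the MCT4 gene, which is dim here, 0.22. None passed the test, and *Gapdh* and *Eno1* had no probe set of their own in the annotation used here. Over the 19 paralogs above the minimum signal 9 were positive and 10 negative (45.2% of all tested). Their median was -0.04, from -0.27 for *Pgk1* to 0.87 for *Slc16a8*, a transporter gene with a mean signal of 64.6.

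**Figure D4:**
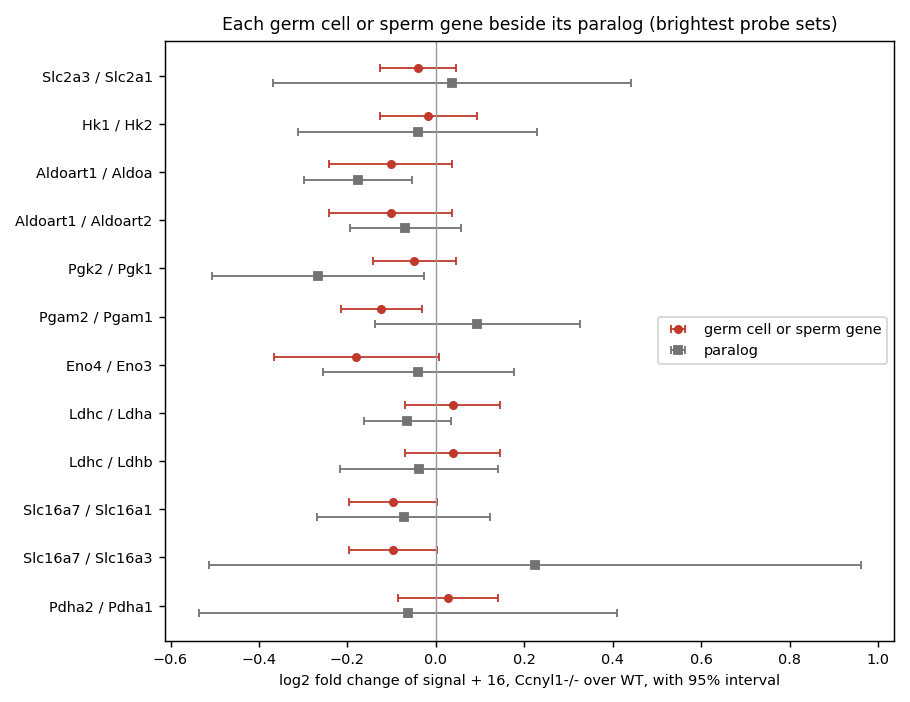
Log2 fold change of signal + 16 (*Ccnyl1*-/- over WT) with its 95% interval from limma for the brightest probe set of each gene of the sperm route (circles) and, below it, of its paralog (squares). The intervals of each pair overlap, and the dim paralogs *Slc16a3* and *Pdha1* have the widest.

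The rest of the route was also without a call. Of 19 other glycolysis enzymes and regulators with a probe set, 12 were negative (45.2% of all tested) and 7 positive on the brightest one (median -0.04). Of their 42 tested probe sets 0 passed (0.0123% of all tested). An unadjusted p under 0.05 from limma was found for 6 (6.05% of all tested and 15.7% of the bright ones). The lowest was *Pfkfb3*, which makes the activator of phosphofructokinase, with 595 and 774 in *Ccnyl1*-/- testes, against 997 and 1016 in WT testes. Its log2 fold change was -0.56 (95% interval -0.87 to -0.25, limma adjusted p = 0.645), and a dimmer probe set, 1416432_at, had -0.14. The highest was *Ldhd*, a D-lactate dehydrogenase gene, at 0.32 with a mean signal of 97.3. Of 17 tested genes of the pyruvate dehydrogenase complex, its regulators and pyruvate carriers, 13 were positive and 4 negative, with a median of 0.13. Over all tested probe sets 45.2% were negative. Again 0 of 29 probe sets were called, and 1 had an unadjusted p under 0.05 from limma (6.05% of all tested). *Pdk1*, a kinase that shuts pyruvate dehydrogenase, was highest, with 662 and 616 in *Ccnyl1*-/- testes, against 396 and 513 in WT testes. Its log2 fold change was 0.49 (95% interval 0.15 to 0.83, limma adjusted p = 0.729), and its other 3 probe sets ran from -0.08 to 0.54. *Pcx*, pyruvate carboxylase, was lowest at -0.12.

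Markers of the germ cells that hold these transcripts, and of other testis cells, were read beside them, each gene by its brightest probe set. The 7 listed genes of elongating spermatids were all bright and had a median of -0.0069 (0.0055 after quantile normalization and -0.0619 with arrays scaled to a common median). Values ran from -0.14 for *Odf1*, a gene of the outer dense fibres, to 0.09 for *Prm1*, protamine 1. Other probe sets of *Odf1* had 0.07 and -0.12, and those of *Prm1* had -0.05 and 0.13. The summed signal of the 7 genes was 218516 and 209100 in *Ccnyl1*-/- testes, against 213529 and 219128 in WT testes, so that the genotypes overlapped. Those of round spermatids had a median of -0.11 (-0.0711 and -0.1618 in the same settings, 5 of 6 negative on the deposited scale), from -0.14 for *Lyzl4*, a lysozyme-like gene, to 0.0022 for *Spaca1*, an acrosomal protein gene, with summed signals of 40623 and 41253 in *Ccnyl1*-/- testes against 43590 and 42335 in WT testes, where the mutants lay below WT. Those of spermatocytes had a median of 0.12 (0.1427 and 0.0628 in the same settings, 6 of 7 positive on the deposited scale), from -0.0056 for *Hormad1*, a gene of the meiotic chromosome axis, to 0.23 for *Spo11*, which cuts DNA for recombination, and summed signals of 47150 and 47891 in *Ccnyl1*-/- testes against 44109 and 45104 in WT testes, where the mutants lay above WT. No probe set of the germ cell lists was called. Each sum is weighted to its brightest probe sets and is compared only between mice. Among single probe sets, 35.9% of all tested and 48% of the bright ones did not overlap, and 45.2% and 67.6% were negative. A change in the share of germ cell stages was not tested. The summed signal of the brightest probe sets of the 10 genes themselves was 163437 and 158490 in *Ccnyl1*-/- testes, against 167776 and 163571 in WT testes. Whether these sums go with those of the round spermatid genes was not tested. Of the other lists the median was 0.01 for spermatogonia, 0.13 for Sertoli cells, 0.19 for peritubular myoid cells, 0.47 for Leydig cells and -0.11 for macrophages, with no call. Leydig cell genes varied most between mice (summed signals of 8883 and 4946 in *Ccnyl1*-/- testes against 6741 and 3708 in WT testes), and the 3 epididymis genes with a probe set had mean signals of 20.1 or less.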

How the data were processed

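Testis RNA of 2 *Ccnyl1*-/- and 2 WT mice was hybridized to 4 arrays. The intensities deposited by the authors are MAS5 signals on a linear scale, made with default settings and global scaling of each array. The methods state a lower target than the trimmed mean of 500.0 (2% left out at each end) found in the table. All 45101 rows were read, and 64 Affymetrix controls served for quality only. The platform annotation pairs 34945 probe sets with 1 gene, 932 with several and 9160 with none, and 0 symbols changed against the RefSeq table of GRCm38.p6. Probe set log2(signal + 16) was fitted in R 4.3.3 with limma 3.58.1 (lmFit, eBayes with a variance trend), with genotype alone, for mean signals of at least 32 and Benjamini-Hochberg adjustment. The fit was also run on simulated data drawn from its own variance model, which cannot test that model.

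The 10 genes, the gene lists, the tests and the minimum of 5000 for bright probe sets were chosen with earlier results of these data known. Every probe set of the 10 genes is given. Other genes named are *Ccnyl1*, paralogs fixed in pairs, and the highest and lowest gene of a list by its brightest probe set. For spermatogonia, blood, epididymis and the somatic cells of the testis, where that rule asked for 2 names a list, only medians, sums or calls are given, and 0 of their probe sets passed. The number of arrays limits the precision. Alternatives were another offset, minimum or normalization, other variance models, the replicate number as a block, the methods' t-test and each mouse left out.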

Additional observations from a re-analysis of the deposited data

How the results depend on the processing

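None of the 17 probe sets of the 10 genes was called under any alternative. With the methods' t-test 5 of the 17 had an unadjusted p under 0.05, as did 1900 of all 32438 tested. The share of bright probe sets under that t-test was not computed, so that the 5 cannot be read as an excess among the 17. In the main limma fit bright probe sets reached that threshold more often, at 15.7% against 6.05% of all tested. Over all tested probe sets the count of 4 calls was 0 with eBayes without the trend, 0 with the methods' t-test after Benjamini-Hochberg adjustment (1900 unadjusted, 5 of the 17 among them), 5 with robust eBayes, and 6 (without *Ccnyl1*-/- replicate 2) to 55 (without WT replicate 2) with a mouse left out, where the lone mouse of a genotype is assumed to vary like the other genotype. The other gene lists then had 0 to 2 calls, which were *Lyz2* (-1.15, against -0.60 with all mice) and the *Pgk1* probe set 1439435_x_at (-1.17, against -0.57), both without WT replicate 2.

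With the replicate number as a block limma called 14 of all probe sets and 0 of the 17. The labels give no shared source for a number, and there are 2 pairs. Deviations of same-numbered mice correlated at 0.014 across all tested probe sets and at 0.254 across 1621 bright ones (mean signal from 5000 up), and probe sets are not independent.

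Scaling moved the small values. The median of the 10 genes was -0.0506 after quantile normalization, -0.1279 with arrays scaled to one median and -0.0734 to -0.0335 with a mouse left out, and that of the 17 probe sets was -0.011, -0.0952 and -0.0572 to -0.0374 in the same settings. With arrays scaled to one median the sign turned for *Ldhc* 1415847_at (-0.0166), *Eno4* 1457694_at (-0.0039), *Pdha2* (-0.0268), *Slc2a3* 1455898_x_at (-0.0331), *Slc2a1* (-0.0152) and *Spaca1* (-0.0528), and after quantile normalization for *Hk1* 1437974_a_at (0.0263), *Slc2a1* (-0.0086) and *Hormad1* (0.0079). The cause was not tested. Of 119 values of the 17 probe sets with all mice kept, 114 kept their sign, and of 68 with a mouse left out 58 did.

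Leaving out each mouse turned the sign of *Ldhc* 1415847_at (-0.0166 to 0.0934), *Eno4* 1457694_at (-0.0868 to 0.186), *Hk1* 1437974_a_at (-0.0572 to 0.0217) and 1420901_a_at (-0.3464 to 0.1157), *Slc2a3* 1455898_x_at (-0.0231 to 0.0668) and 1421924_at (-0.3252 to 0.4667), *Ldhb* (-0.09 to 0.0131), *Eno3* (-0.1315 to 0.0521), *Hk2* (-0.1433 to 0.0607), *Pdha1* (-0.3336 to 0.2071), *Slc2a1* (-0.1362 to 0.2095), *Slc16a3* (-0.0845 to 0.5336), *Slc16a8* (-0.2447 to 1.9913), *Ldhd* (-0.0655 to 0.6985), *Hormad1* (-0.0776 to 0.0664) and *Spaca1* (-0.0588 to 0.0631). With 2 mice a genotype, small changes of single genes cannot be told from the spread, and signal over background is not in the deposited values.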
